A study of Homo sapiens with 5 samples.

Results

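The E2F and DP transcription factors are encoded by 10 genes in this set, E2F1 to E2F8, TFDP1 and TFDP2, among 19970 annotated protein-coding genes (autosomes and the X chromosome). The genes were taken by name. For each, Rb peaks were sought from 2000 bp upstream to 500 bp downstream of any GENCODE transcription start site (TSS), called its promoter here, and in the rest of the gene. Rb occupancy was profiled by CUT&RUN, which sequences the DNA fragments that a nuclease, held by an antibody at a protein of interest, cuts out of native chromatin, in ZR-75-1, a hormone receptor-positive breast cancer cell line. Cells received either DMSO, the vehicle, or 500 nM abemaciclib, an inhibitor of the kinases CDK4 and CDK6, and both arms were collected after 4 days. There were 2 Rb libraries per treatment and 1 library made with a non-specific antibody (IgG2a) from DMSO-treated cells, and no replicate of that control. All 5 libraries came from the parental line, so Rb was its own untagged protein, and the results concern 1 cell line.

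Rb binds the activation domain of E2F proteins and represses their target genes until cyclin-dependent kinases phosphorylate it and release it. E2F1, E2F2 and E2F3 are the activators of this family, which drive genes of S phase. E2F4 and E2F5 are repressors that work mainly with the Rb relatives p107 and p130. E2F6 represses without an Rb-binding domain. E2F7 and E2F8 are atypical repressors that bind DNA without a DP protein and also lack that domain. TFDP1 and TFDP2 encode DP1 and DP2, the partners with which E2F1 to E2F6 form dimers on DNA. Several of these genes are themselves E2F targets, so the family feeds back on its own expression.

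The DMSO lists held 1438 and 2582 peaks, the abemaciclib lists 13960 and 12234, and the IgG2a list 589. The depths implied by the lists were 12.3 and 13.6 M fragments (M, 1000000) in DMSO, 9.73 and 7.69 M in abemaciclib and 9.81 M in IgG2a. Levels are given below as the pileup, the number of fragments that overlap at the summit of a peak, and as that number per M implied fragments. The least pileup called as a peak was 6 fragments in either DMSO library and 5 in either abemaciclib library.

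The promoter stretches upstream of the canonical TSS are printed for the 4 genes with an Rb peak in DMSO for which RefSeq (GRCh38.p14) gave one, and for a pair of genes with a peak in the abemaciclib libraries only. They show where the E2F-type pattern TTNNCGC, in which each N is C or G, and CCAAT, the pattern bound by NF-Y, lie, in capitals, on either strand, so that a match on the other strand reads as its reverse complement. Each runs 5′ to 3′ in the direction of transcription and ends 1 base before the TSS, except TFDP1, which ends at position -33 where an alternative first exon begins. Positions are counted from the TSS, negative upstream. E2F1 is chr20:33686386-33686635 on the minus strand, E2F3 chr6:20401629-20401878 on the plus strand, E2F7 chr12:77065570-77065819 on the minus strand, TFDP1 chr13:113584503-113584720 on the plus strand, E2F2 chr1:23531234-23531483 on the minus strand and TFDP2 chr3:142149545-142149794 on the minus strand.
E2F1: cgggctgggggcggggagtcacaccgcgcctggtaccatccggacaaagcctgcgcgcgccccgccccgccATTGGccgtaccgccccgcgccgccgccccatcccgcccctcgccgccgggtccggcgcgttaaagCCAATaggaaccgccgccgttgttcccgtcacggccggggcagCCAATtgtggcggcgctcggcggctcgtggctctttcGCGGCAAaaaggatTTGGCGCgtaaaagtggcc
E2F3: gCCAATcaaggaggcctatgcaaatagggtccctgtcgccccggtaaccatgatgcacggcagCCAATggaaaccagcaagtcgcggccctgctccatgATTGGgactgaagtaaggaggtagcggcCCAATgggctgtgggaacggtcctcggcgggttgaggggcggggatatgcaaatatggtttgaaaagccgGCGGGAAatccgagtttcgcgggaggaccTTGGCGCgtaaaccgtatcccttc
E2F7: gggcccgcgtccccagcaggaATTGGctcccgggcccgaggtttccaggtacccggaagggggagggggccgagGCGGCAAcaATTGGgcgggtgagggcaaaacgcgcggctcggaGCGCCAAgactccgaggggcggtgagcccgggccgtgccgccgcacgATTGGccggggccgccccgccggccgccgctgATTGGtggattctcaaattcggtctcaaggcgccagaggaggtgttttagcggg
TFDP1: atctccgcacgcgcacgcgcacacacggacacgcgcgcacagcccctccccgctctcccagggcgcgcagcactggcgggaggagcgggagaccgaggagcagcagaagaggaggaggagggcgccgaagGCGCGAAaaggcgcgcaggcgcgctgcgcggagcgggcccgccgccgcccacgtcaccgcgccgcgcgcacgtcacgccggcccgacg
E2F2: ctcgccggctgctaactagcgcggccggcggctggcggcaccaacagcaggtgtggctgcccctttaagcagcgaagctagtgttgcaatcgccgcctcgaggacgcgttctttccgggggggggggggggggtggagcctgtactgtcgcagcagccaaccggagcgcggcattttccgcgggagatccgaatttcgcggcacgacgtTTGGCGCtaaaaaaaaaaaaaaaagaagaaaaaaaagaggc
TFDP2: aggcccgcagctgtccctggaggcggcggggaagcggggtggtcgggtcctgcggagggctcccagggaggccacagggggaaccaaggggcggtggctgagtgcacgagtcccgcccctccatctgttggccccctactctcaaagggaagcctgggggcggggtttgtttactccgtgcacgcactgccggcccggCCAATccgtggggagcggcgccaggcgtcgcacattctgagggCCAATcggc
The E2F1 stretch holds E2F patterns at -33 and -19 and CCAAT at -179, -113 and -70. The E2F3 stretch holds E2F patterns at -53 and -24 and CCAAT at -249, -187, -151 and -123, and the E2F7 stretch holds E2F patterns at -176 and -133 and CCAAT at -229, -167, -86 and -54. TFDP1 and E2F2 each have 1 E2F pattern, at -120 and -41, and no CCAAT. TFDP2 has CCAAT at -52 and -9 and none of the E2F letters.

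Whether CDK4/6 inhibition brings Rb to the promoters of the E2F and DP genes was addressed first. All 10 genes carried a promoter peak in abemaciclib replicate 1 and all 10 in replicate 2, against 2 in DMSO replicate 1, 5 in DMSO replicate 2 and 0 in IgG2a. The means were 10 ± 0 genes with abemaciclib and 3.5 ± 2.12 with DMSO (SD, n = 2 each), a difference of 6.5 genes. The groups did not overlap. The exact two-sided permutation test over libraries gave p = 0.333, the smallest that 2 libraries against 2 allow.

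The background was high in abemaciclib. Of all coding genes, 58.0% and 53.9% had a promoter peak in abemaciclib replicates 1 and 2 and 52.7% in both, against 7.86% and 12.4% in DMSO replicates 1 and 2 and 0.0300% in IgG2a. E2F1 and E2F7 were bound in all 4 Rb libraries, a pattern held by 6.41% of coding genes. E2F3, E2F8 and TFDP1 were bound in DMSO replicate 2 and both abemaciclib libraries. E2F2, E2F4, E2F5, E2F6 and TFDP2 were bound in both abemaciclib libraries and neither DMSO library, a pattern held by 38.9% of coding genes. Among the 10516 coding genes bound in both abemaciclib libraries, 26.2% had a peak in at least 1 DMSO library, and 5 of the 10 E2F and DP genes did. A missing DMSO peak says only that the region did not pass the threshold of that list.

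The counts depended on the number of peaks listed. When each list was cut to its strongest 1438 peaks, the size of the smallest, DMSO replicates 1 and 2 kept 2 and 4 of the genes and each abemaciclib library kept 3, so the difference between treatments was 0. E2F1 and E2F7 stayed in all 4 shortened lists, and E2F3 stayed in both abemaciclib lists and in DMSO replicate 2. At this size between 7.67% and 8.59% of coding genes had a promoter peak in each list. By the number of its genes in lists of equal size, the family thus did not separate the treatments.

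**Figure D1:**
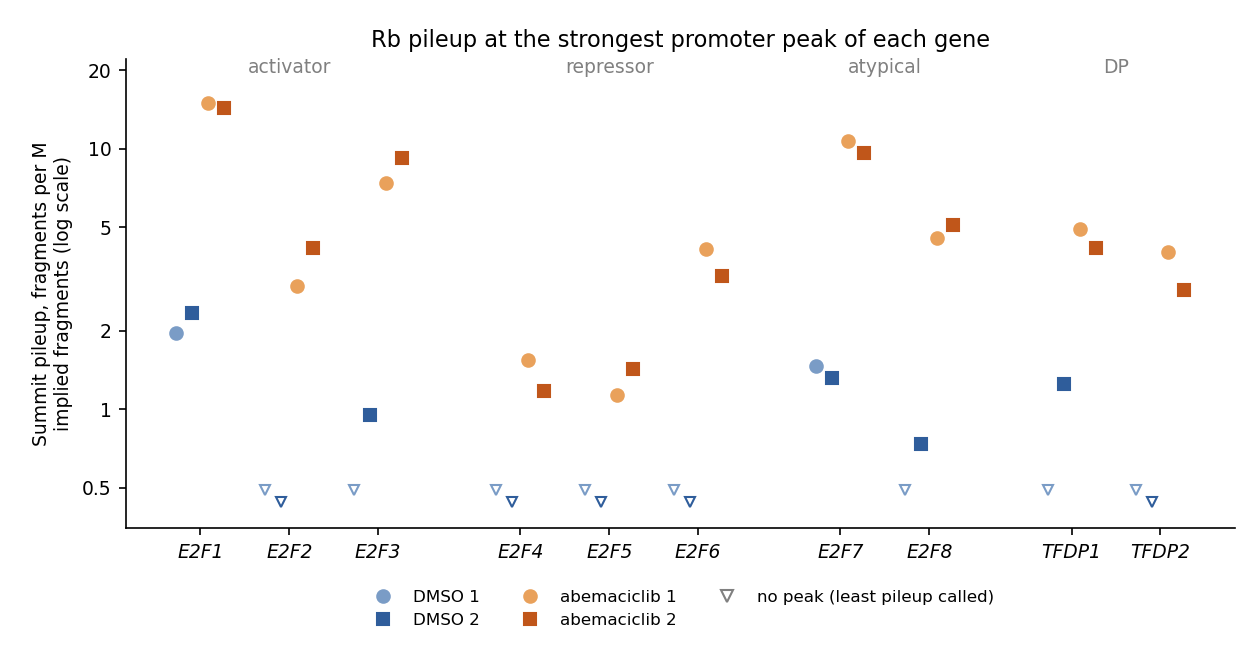
Summit pileup at the strongest promoter peak of each gene, in fragments per M implied fragments on a log scale, for the 2 DMSO and 2 abemaciclib Rb libraries. Open triangles stand at the least pileup called in a DMSO library where a gene had no peak there. E2F1 and E2F7 have 4 filled points, and the abemaciclib points lie above the DMSO points in each of the 5 genes with a DMSO peak. Over the 2470 coding genes bound in DMSO replicate 2 and both abemaciclib libraries, the median ratio of abemaciclib to DMSO replicate 2 was 8.42.

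E2F1 is the best studied activator and a driver of S phase entry. By pileup and by p-value it had the strongest promoter peak of the family in every Rb library. Its pileup was 24 fragments in DMSO replicate 1 and 32 in replicate 2, against 145 in abemaciclib replicate 1 and 110 in replicate 2. Per M implied fragments these were 1.96, 2.35, 14.9 and 14.3. Both abemaciclib values lay far above both DMSO values, with means of 14.6 ± 0.426 and 2.15 ± 0.275 (SD, n = 2 each), a ratio of 6.79 that ranged from 6.10 to 7.61 over pairs of libraries. The exact permutation test gave p = 0.333, again the smallest possible. The fold enrichment over local background that the peak caller reported was 11.1 and 10.6 in DMSO and 58.6 and 51.2 in abemaciclib, and the −log10 p was 23.2, 27.2, 229 and 173 in the same order. The peak ranked 119 of 1438 and 163 of 2582 by p-value in DMSO and 294 of 13960 and 322 of 12234 in abemaciclib. Summits lay between -117 and -70 bp, upstream of the only annotated TSS of the gene (chr20:33675477-33686385, minus strand) and within 47 bp of each other. The peak was 420 and 440 bp wide in DMSO and 1625 and 1406 bp wide in abemaciclib.

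E2F3, an activator whose gene has a second promoter inside its first intron that gives the shorter protein E2F3b, was bound at the upstream promoter in 3 libraries. The pileup there was 13 in DMSO replicate 2 and 72 and 71 in abemaciclib replicates 1 and 2, or 0.953, 7.40 and 9.23 per M. DMSO replicate 1 had no peak. The abemaciclib levels were 7.76 and 9.68 times that of DMSO replicate 2. The peak ranked 597 in DMSO replicate 2 and 1063 and 612 in abemaciclib, with summits at -181, -224 and -182 bp from the TSS (gene chr6:20401879-20493714, plus strand). The intronic promoter, whose TSS lies 1800 bp downstream, carried a separate and weaker peak in abemaciclib only, with pileups of 15 and 9, 1.54 and 1.17 per M, at ranks 8450 and 9436. Within this gene the upstream promoter had the higher pileup in both abemaciclib libraries.

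E2F2, the third activator, differed from the other two in having no DMSO peak. Its abemaciclib pileups were 29 and 32, or 2.98 and 4.16 per M, at ranks 5628 and 3091. Those levels were below E2F1 and E2F3 in both libraries. The summits lay 138 and 49 bp downstream of the TSS, in the first exon (gene chr1:23506438-23531233, minus strand), rather than upstream of it. The activators therefore spread widely, and their median rank in abemaciclib, 838 ± 319 (SD, n = 2), was that of E2F3.

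E2F7, an atypical repressor of E2F target genes, came closest to E2F1. Its pileup was 18 in each DMSO library and 104 and 74 in abemaciclib replicates 1 and 2. Per M these were 1.47, 1.32, 10.7 and 9.62, and the groups did not overlap. The means were 1.39 ± 0.105 and 10.2 ± 0.756 (SD, n = 2 each), a ratio of 7.29 with a range of 6.55 to 8.10 over pairs of libraries and an exact permutation p of 0.333. The peak ranked 155 and 251 in DMSO and 466 and 542 in abemaciclib. Its fold enrichment over local background was 11.5 and 11.3 in DMSO and 63.4 and 49.3 in abemaciclib. By that measure E2F7 exceeded E2F1 in every Rb library but abemaciclib replicate 2. The summits lay between -153 and -59 bp from the canonical TSS (gene chr12:77021248-77065569, minus strand). In both abemaciclib libraries the peak was 1344 bp wide.

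E2F8, the other atypical repressor, was weaker. It had a pileup of 10 in DMSO replicate 2, 0.733 per M, against a least called level of 0.440 per M in that library, and no peak in DMSO replicate 1. The abemaciclib pileups were 44 and 39, or 4.52 and 5.07 per M, at ranks 2986 and 2286. Both abemaciclib summits fell on the same base, at -158 bp from the canonical TSS, while the DMSO summit lay at -299 bp (gene chr11:19224063-19241620, minus strand). These positions are in an intron of longer transcripts of the gene. The atypical genes had a median rank of 1570 ± 221 (SD, n = 2) in abemaciclib.

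TFDP1, which encodes the main DNA-binding partner of E2F proteins, had a pileup of 17 in DMSO replicate 2, where it ranked 333. DMSO replicate 1 had no peak. In abemaciclib the pileups were 48 and 32, at ranks 2640 and 3091, so TFDP1 stood higher in its list in DMSO replicate 2 than E2F3 and lower in both abemaciclib lists. Per M the levels were 1.25 in DMSO replicate 2 and 4.93 and 4.16 in abemaciclib, which were 3.96 and 3.34 times as high. The summit lay at -199 bp from the canonical TSS in DMSO replicate 2 and at -91 and -96 bp in abemaciclib (gene chr13:113584721-113641473, plus strand). TFDP2, which encodes DP2, had no DMSO peak and pileups of 39 and 22 in abemaciclib, 4.01 and 2.86 per M, at ranks 3542 and 4852. Its summits were 138 and 135 bp downstream of the TSS, in the first exon (gene chr3:141944428-142149544, minus strand). The DP genes did not overlap over the abemaciclib libraries, though the lowest TFDP1 value, 4.16, was close to the highest TFDP2 value, 4.01.

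The repressor class split. E2F6, which acts with Polycomb-type complexes, had abemaciclib pileups of 40 and 25, 4.11 and 3.25 per M, at ranks 3331 and 4119, with summits in annotated exons 159 and 219 bp downstream of the canonical TSS (gene chr2:11444375-11466177, minus strand). E2F4, the most abundant E2F of resting cells, had pileups of only 15 and 9, 1.54 and 1.17 per M, at ranks 8106 and 11690. Its peak also lies in the promoter of EXOC3L1, a neighbouring coding gene, and the summits stood 50 and 287 bp downstream of the E2F4 TSS (gene chr16:67192155-67198918, plus strand), so the peak cannot be given to E2F4 alone. E2F5 had a pileup of 11 in each abemaciclib library, 1.13 and 1.43 per M, at ranks 11558 and 9522, with the summit on the same base 70 bp downstream of the TSS in both. E2F5 lies at chr8:85177154-85217158 on the plus strand, and its peak also falls in the promoter of the non-coding gene E2F5-DT. None of these 3 genes had a DMSO peak. The class had a median rank of 8814 ± 1001 (SD, n = 2) in abemaciclib, the weakest of the family, but with 2 or 3 genes a class and E2F6 apart from the other members, no test between classes was made.

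**Figure D2:**
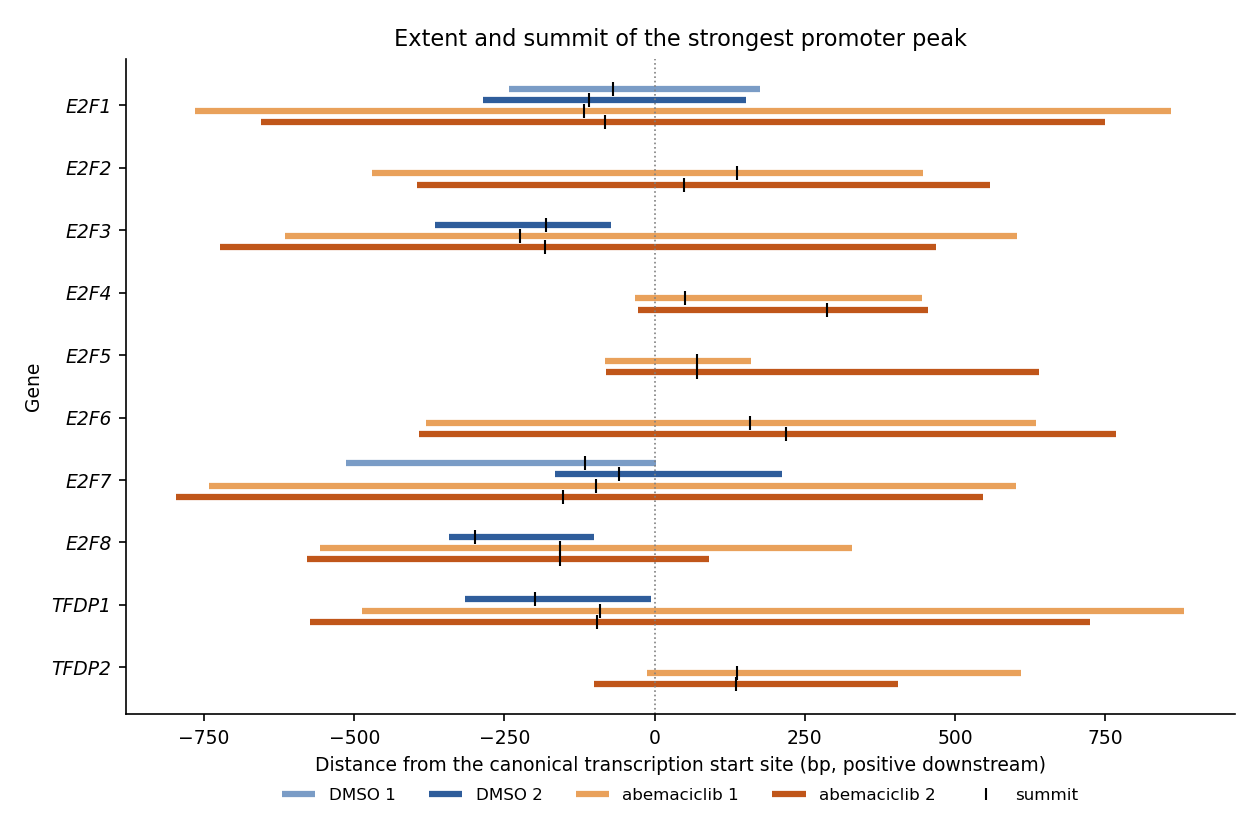
Start, end and summit of the strongest promoter peak of each gene, in bp from the canonical TSS, positive downstream, with a bar for each Rb library that had a peak and a black tick at its summit. The genes with a DMSO peak have summits upstream of the canonical TSS, and the genes without one have summits downstream of it. From the nearest annotated TSS, the E2F4 and E2F5 summits and the E2F6 summit of abemaciclib replicate 2 lie upstream.

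At the strongest promoter peak, the side of the TSS on which the summit lay followed the DMSO pattern. That pattern also split the genes by level. Mean abemaciclib pileups were 4.55 per M or more in the 5 genes with a DMSO peak and 3.68 per M or less in the 5 without. Summit side, DMSO pattern and peak level therefore cannot be told apart in these 10 genes. In E2F1, E2F3, E2F7, E2F8 and TFDP1, the 5 genes with a DMSO peak, the summit of that peak lay upstream of the canonical TSS in each library that had one, between -299 and -59 bp. In E2F2, E2F4, E2F5, E2F6 and TFDP2, the 5 without one, the summit of that peak lay downstream in both abemaciclib libraries, between 49 and 287 bp. This is a description of 10 genes seen after the values were known, and the canonical TSS is a choice among 2 to 21 annotated TSSs in each gene but E2F1, which has 1. Measured from the nearest annotated TSS instead, the E2F4 and E2F5 summits and the E2F6 summit of abemaciclib replicate 2 lay upstream, between -63 and -1 bp. Widths also differed. The mean abemaciclib width was 1516 bp for E2F1, 1344 bp for E2F7, 1335 bp for TFDP1 and 1207 bp for E2F3, against 937 bp for E2F2, 565 bp for TFDP2, 484 bp for E2F5 and 482 bp for E2F4, but 1089 bp for E2F6 and 779 bp for E2F8 broke the pattern. The median over all coding genes with a promoter peak was 926 and 863 bp in abemaciclib replicates 1 and 2.

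Ordered by mean pileup per M in abemaciclib, the genes ran E2F1 (14.6), E2F7 (10.2), E2F3 (8.32), E2F8 (4.80), TFDP1 (4.55), E2F6 (3.68), E2F2 (3.57), TFDP2 (3.43), E2F4 (1.36) and E2F5 (1.28). The first 3 were apart from their neighbours over both libraries. E2F8 and TFDP1 overlapped, as did E2F6 with E2F2, E2F6 and E2F2 with TFDP2, and E2F4 with E2F5, and E2F2 tied with TFDP1 in abemaciclib replicate 2, so no order holds within those pairs. The median over coding genes with a promoter peak was 2.78 and 2.86 per M in abemaciclib replicates 1 and 2. E2F1 had a better ranked peak than all but 3.004% and 3.60% of those genes, E2F7 than all but 4.87% and 6.26%, and E2F3 than all but 11.0% and 6.94%. E2F4 and E2F5 stood at the other end, with 71.9% and 98.02% of those genes ranked better than E2F4 and 92.01% and 86.8% better than E2F5.

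**Figure D3:**
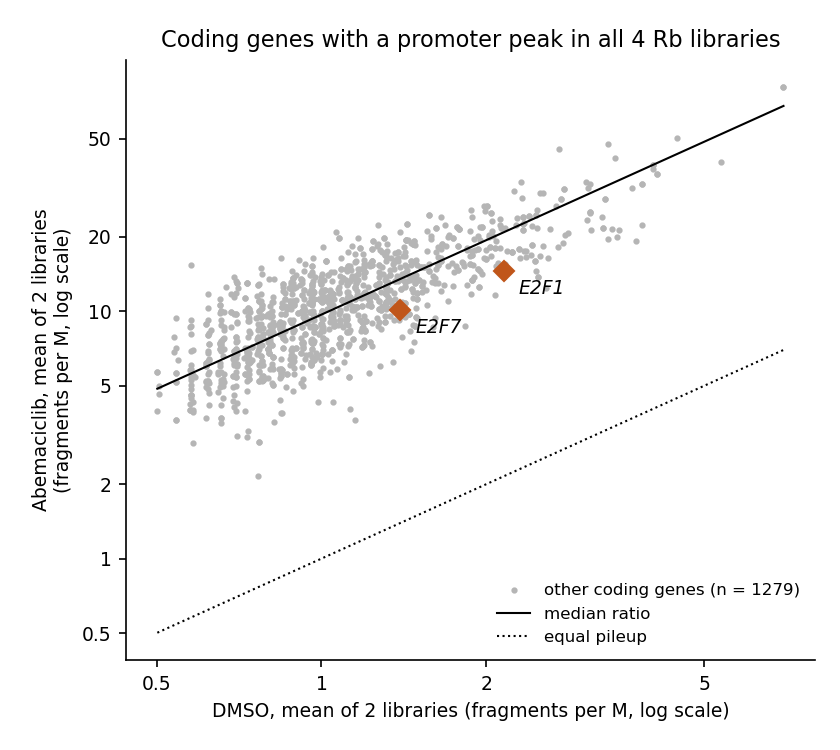
Mean summit pileup of the 2 abemaciclib libraries against that of the 2 DMSO libraries, in fragments per M implied fragments on log axes, for the 1281 coding genes with a promoter peak in all 4 Rb libraries. E2F1 and E2F7 lie below the solid line at the median ratio of 9.71 and above the dotted line of equal pileup.

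The ratios of E2F1 and E2F7 were below the lower quartile of genes with the same pattern. Over the 1281 coding genes with a promoter peak in all 4 Rb libraries, the abemaciclib pileup per M was 9.71 times that of DMSO at the median, with quartiles of 7.95 and 11.8. The ratio of E2F1, 6.79, had 11.4% of genes below it, and that of E2F7, 7.29, had 17.02%. Scaled instead to the genome-average coverage of each library, an alternative chosen after seeing the data, the ratios were 5.13 for E2F1, 5.53 for E2F7 and 7.35 at the median of all genes, so both stayed below the median. Against DMSO replicate 2 alone, which 2470 coding genes bound in both abemaciclib libraries also share, the median was 8.42 with quartiles of 6.62 and 10.8. On that scale E2F3 stood at 8.72, E2F7 at 7.70, E2F8 at 6.54, E2F1 at 6.22 and TFDP1 at 3.65. E2F3 was thus close to the median, and TFDP1 had 2.63% of genes below it. E2F3, E2F8 and TFDP1 enter this comparison only because DMSO replicate 2 listed them, and no correction was made for that selection.

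By rank over the 4 libraries, the coding genes most like E2F1, whose mean log10 rank was the best of the family, were POLD2, a subunit of DNA polymerase delta, and MTHFD1, an enzyme of folate metabolism. The Euclidean distances in log10 rank were 0.152 for POLD2 and 0.167 for MTHFD1, among 1280 genes compared. POLD2 ranked 154 and 138 in DMSO and 347 and 327 in abemaciclib. For E2F7 the nearest gene was CCNF, which encodes cyclin F, at a distance of 0.138, with ranks of 173, 322, 450 and 462.

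**Figure D4:**
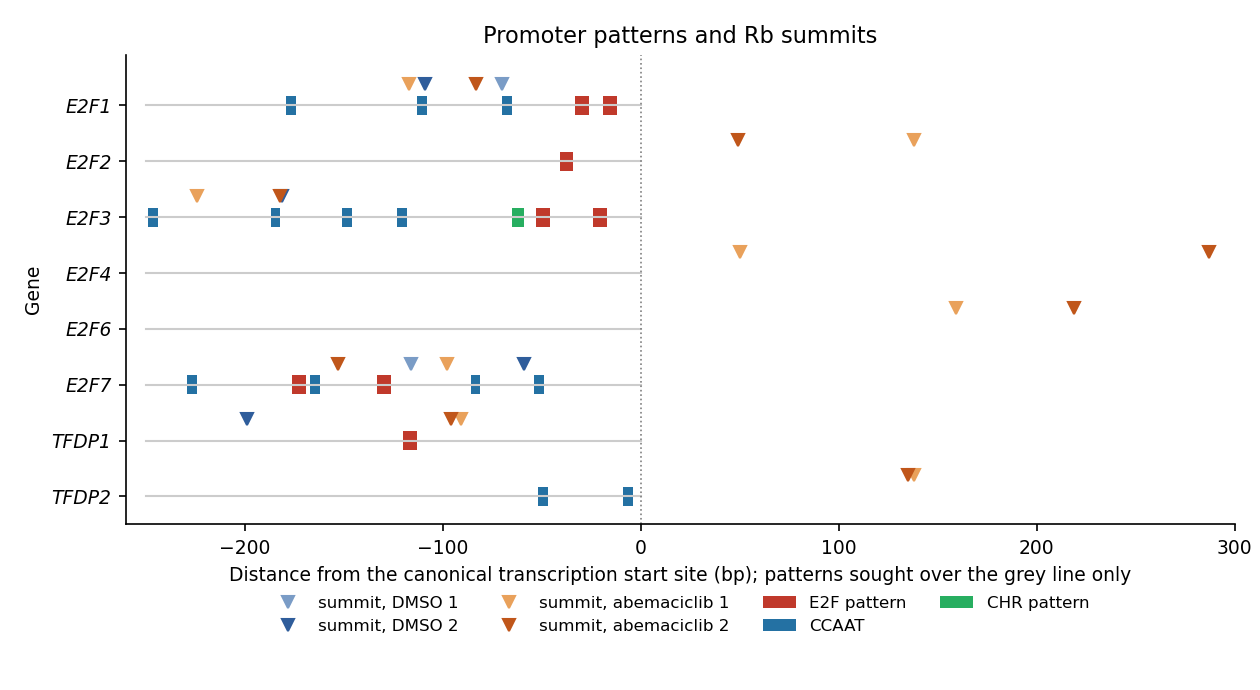
Positions of the E2F, CCAAT and CHR patterns in the 250 bases upstream of the canonical TSS of 8 genes (bars on the grey lines), with the summits of the strongest promoter peaks as triangles by library, in bp from the TSS. Summits of E2F1 and E2F3 stand near CCAAT, upstream of the E2F patterns, and those of E2F2, E2F4, E2F6 and TFDP2 stand downstream of the TSS.

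The promoter sequences printed above were compared with the summits. In E2F1 the 4 summits lay 2, 2, 6 and 15 bp from the centre of the nearest CCAAT and between 40 and 87 bp from the nearest E2F pattern. In E2F3 the 3 summits lay 3, 4 and 23 bp from the nearest CCAAT and between 131 and 174 bp from the nearest E2F pattern. In E2F7, where the patterns are interspersed, summits lay between 7 and 32 bp from CCAAT and between 14 and 71 bp from an E2F pattern. The abemaciclib summits of TFDP1 lay 26 and 21 bp from its E2F pattern, and the DMSO summit lay 82 bp from it. A summit is placed where fragments overlap most, and with CCAAT as frequent as in these promoters, a short distance to the nearest one is not a binding site.

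RefSeq gave an upstream stretch of 250 bases at the canonical TSS for 8 of the 10 genes, all but E2F5 and E2F8. E2F patterns were in 5 of the 8, E2F1, E2F2, E2F3, E2F7 and TFDP1, against 13.6% of the 22198 RefSeq promoters of 15842 coding genes, cut to the same length. Of these, E2F1, E2F3 and E2F7 had 2 E2F matches each, against 1.77% of promoters with 2 or more. CCAAT was in 4 of the 8, against 32.7%. The same 3 genes, E2F1, E2F3 and E2F7, combined an E2F pattern with 2 or more CCAAT, a combination in 1.83% of promoters. The pattern TTTGAA, known as CHR and bound by the MuvB complex, was in E2F3, at -65, against 11.0% of promoters. These background shares include alternative promoters, whereas the 8 genes were scored at the canonical TSS only. Of their alternative RefSeq promoters, those of TFDP2, 120364 and 120918 bp downstream, hold CHR and neither other pattern. That of E2F3, 1735 bp downstream, holds none of the patterns. E2F4 and E2F6 had neither an E2F pattern nor CCAAT. The patterns are short, were sought on both strands and overlap no other pattern in the list, and a match is not a site.

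In 200-bp windows centred on the summits of abemaciclib replicate 1, the E2F pattern was in 4 of 10 genes, 40% with a Wilson 95% interval of 16.8% to 68.7%, against 17.5% of the 11183 coding-promoter peaks of that library. CCAAT was also in 4 of 10, against 18.8%. Every gene with either pattern in these windows had a DMSO peak. At the coding-promoter peaks of DMSO replicates 1 and 2, the shares were higher, 30.1% and 27.6% for E2F and 30.9% and 30.1% for CCAAT. With the summits of abemaciclib replicate 2, the E2F pattern was in 6 of 10, 60% with an interval of 31.3% to 83.2%, against 17.9%. The added windows were those of E2F2 and E2F4, neither of which had a DMSO peak, so that link did not hold in replicate 2. CHR was in 0 of 10 windows in either library, with an upper Wilson limit of 27.8%, against 3.77% and 3.93% of peaks. The intervals cover counting error only, and the 10 genes were taken by name, not drawn from a larger set. The windows of 9 genes had a GC content between 66% and 79.5% in abemaciclib replicate 1, against a median of 69% for coding-promoter peaks. Of these 9 only E2F8, at 66%, lay below that median. The window of E2F3 stood apart, at 57% GC and an observed over expected CpG ratio of 0.492, against a median of 0.847.

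Outside promoters, 3 of the 10 genes had an Rb peak within the gene in at least 1 library, against 10.4% of coding genes. In E2F2 it was an intronic peak 2784 bp downstream of the TSS with a pileup of 10 in abemaciclib replicate 1 only. In E2F3 it was an intronic peak 2665 bp downstream with a pileup of 7 in abemaciclib replicate 2 only. In E2F4 it was a wide peak at the 3′ end in both abemaciclib libraries, with pileups of 22 and 23, 2.26 and 2.99 per M, and widths of 1988 and 1582 bp. Its summit lay 420 and 541 bp beyond the end of E2F4, in the promoter of ELMO3, and it was higher than the E2F4 promoter peak in either library. No DMSO library had a peak in the gene body of any of the 10. Within 5 kb of the genes, neighbouring promoters were bound beyond E2F1 and E2F5. The peak 1109 and 1138 bp past the end of E2F1 is in the NECAB3 promoter, with pileups of 54 and 21 in abemaciclib and no DMSO peak. The peak beyond E2F5, in the shared promoter of CA13 and RBIS, had pileups of 87 and 55 in abemaciclib, 3487 and 3471 bp past the gene end, and of 8 in each DMSO library, 3622 and 3419 bp past it. That neighbouring promoter was thus bound in all 4 Rb libraries, while the E2F5 promoter was bound in abemaciclib only. IgG2a had 1 peak in the family, in an intron of TFDP1, with a pileup of 8, where no Rb library had one.

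**Figure D5:**
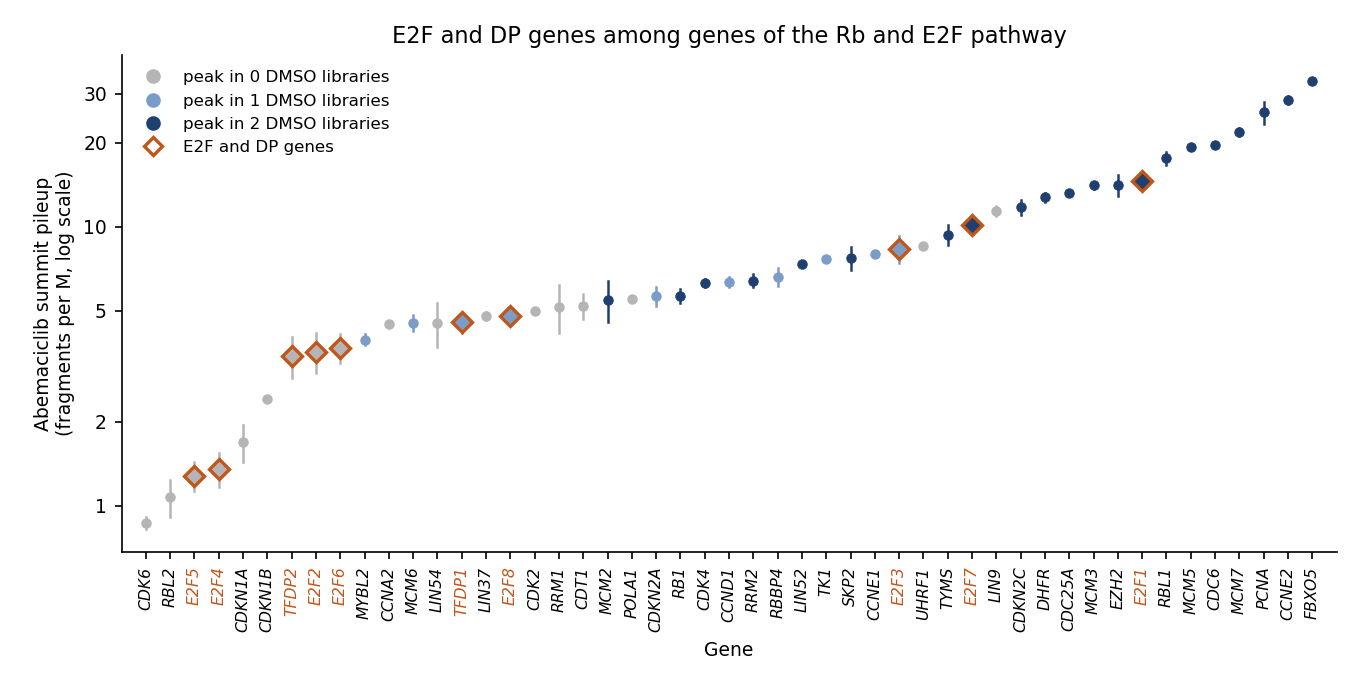
Mean summit pileup of the strongest promoter peak in abemaciclib, in fragments per M implied fragments on a log scale, for the 10 E2F and DP genes (diamonds) and the 39 bound genes of the Rb and E2F pathway list, with lines joining the 2 libraries. Shading gives the number of DMSO libraries with a peak. E2F1 has 7 pathway genes above it, and E2F4 and E2F5 have 37.

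The wider pathway was described by a list of 40 genes of the Rb family, the MuvB complex, cyclins and their kinases and inhibitors, and E2F target genes of S phase. A promoter peak was present in both abemaciclib libraries for 39 of them, in DMSO replicate 1 for 21 and in DMSO replicate 2 for 24. In all 4 Rb libraries 19 had one, 7 in 1 DMSO library and both abemaciclib libraries, and 13 in abemaciclib only, and TFDP3, which encodes a DP protein of germ cells, had none. Of all coding genes, 52.7% had a peak in both abemaciclib libraries, 7.86% in DMSO replicate 1 and 12.4% in DMSO replicate 2. The share was 6.41% for all 4 Rb libraries and 38.9% for both abemaciclib libraries and neither DMSO library. The mean abemaciclib pileup of the 39 bound pathway genes had a median of 6.60 per M, against 4.11 for the 10 E2F and DP genes. Among genes bound in all 4 libraries, those with the best mean rank were CDC6, which loads the replicative helicase, at 40, CCNE2, encoding cyclin E2, at 54, and MCM5, a subunit of that helicase, at 56.3. Those with the worst were MCM2 at 1948, CDK4 at 1486 and RB1, the gene of Rb itself, at 1421. The abemaciclib pileup of CCNE2 was 27.5 and 29.4 per M, above both E2F1 values. Ratios of abemaciclib to DMSO ranged from 5.14 in MCM5 to 17.1 in CDKN2C, with a median of 9.46, so E2F1 and E2F7 lay in the lower part of that range.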

How the data were processed

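Rb CUT&RUN peak lists from 4 Rb libraries and 1 IgG2a library were analysed. The sample titles gave groups and replicate numbers. Paired-end reads had been trimmed (BBDuk) and aligned to hg38 (Bowtie2 2.3.4.1) by the authors, who removed mitochondrial and blacklisted reads, kept duplicates, and called peaks per library, without pooling, with MACS2 2.2.7.1 at a q-value of 0.05 against IgG. Each deposited list gives a fold enrichment, a ratio in which 1 is added to both the pileup and the local background, and −log10 values of p and q. The lists hold no counts over common regions, so the authors' count model was not run here.

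The whole-number pileup that satisfies both fold and p-value was solved for each peak. At a relative tolerance of 2e-05, between 99.6% and 100% of peaks with −log10 p of at most 40 came out whole. Depth was the most frequent of the lower solved backgrounds times an effective genome of 2.7 Gb over the least peak width, which assumes the peak caller's default. Solving was tested on simulated peaks. Promoters were 2000 bp upstream to 500 bp downstream of GENCODE 44 TSSs, with 1 bp of overlap, and the strongest promoter peak was the one with the best p-value. Peaks were ranked by p-value within a library. Python 3.11.15, pandas 2.3.3, scipy 1.17.1 and pysam 0.24.0 were used. Replicates are separate libraries. Permutation p-values compare libraries, while the peak caller's p-values, used for ranking, compare pileup with local background within a library. All 10 E2F and DP genes are named. Pathway genes are named if among the 3 best or 3 worst mean ranks in all 4 libraries, or unbound, and genes most like E2F1 (5, of which 3 are not reported here) and E2F7 (1) by distance in log10 rank. CDKN2C was named afterwards, as the highest ratio. Genes and lists were chosen with earlier results of these data known. Alternatives were stricter q-values, equal list sizes, other windows, transcripts, rankings, scalings, patterns and left-out replicates.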

Additional observations from a re-analysis of the deposited data

How the results depend on the processing

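Of 59 recomputed values, 50 stayed within a set margin. It was 1.5 times for counts and the Wilson interval for shares. For class ranks it was the SD over replicates, and for pileup ratios the SD over pairs of libraries. Leaving out a replicate cannot move a class rank beyond that SD, so those values were no check. Equal list sizes brought the difference in genes with a promoter peak from 6.5 to 0 and the genes with a peak in the gene body from 3 to 0. A q-value of at most 1e-05 left 1 gene with a gene-body peak. Left-out replicates moved the difference in genes between 5 and 8 and the genes bound in every remaining library between 2 and 5, the 5 coming without DMSO replicate 1. Genes with a gene-body peak ranged from 2 to 3. The median pileup ratio of E2F1 and E2F7, 7.04, became 4.75 with no scaling, 5.00 with the fold enrichment in its place, and 5.33 scaled to genome-average coverage, an alternative chosen after seeing the data, and ranged from 6.77 to 7.30 over left-out replicates. The share of windows with the E2F pattern, 40%, became 80% in 400-bp windows, where 34.9% of coding-promoter peaks had it, and 100% with the core pattern and free flanks, where 90.4% had it. Median ranks by class ranged over left-out replicates from 612 to 1063 for activators, from 8106 to 9522 for repressors and from 1414 to 1726 for atypical genes. The causes were not tested. At a q-value of at most 1e-05, E2F4 was lost in abemaciclib replicate 2, E2F5 in abemaciclib replicate 1 and E2F8 in DMSO replicate 2. With the replicate number as a block, chosen after seeing the data, the mean difference in genes was 6.5 (8 and 5 within numbers 1 and 2) and the median pileup ratio 7.07 (7.61 and 6.10 for E2F1, 7.28 and 7.29 for E2F7), with no test. The libraries share only a number, and over the 1281 coding genes with a promoter peak in all 4 libraries the deviations of same-numbered libraries had a Pearson correlation of -0.0866. Depths rest on an assumed genome size and fragment length, and weak regions in the DMSO libraries could not be separated from absent ones.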
